A study of Phrynocephalus vlangalii with 2 samples.

Results

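The assembled genes described here are those of a lizard transcriptome whose annotation text names a splicing factor, a small nuclear ribonucleoprotein (snRNP), a heterogeneous nuclear ribonucleoprotein, a pre-mRNA factor, an RNA-binding protein, a cold-inducible protein or an ATP-dependent RNA helicase. They numbered 66 of 58458 assembled genes, under 21 annotation names, and are called copies below. They had reads from 2 RNA-seq libraries of adult toad-headed lizards, Phrynocephalus vlangalii, 1 from the Madoi population and 1 from the Maqu population, and the series title places the question in adaptation to high altitude. Each library came from liver, lung, heart and muscle, per the labels, which do not give the number of animals. Where 1 library stands for a population no difference has a replicate check, so each ratio compares these 2 libraries and not the populations. The Madoi library held 63636521 estimated reads and the Maqu library 66401051. The copies took 0.161% of the Madoi reads and 0.131% of the Maqu reads, 102175 and 87249 reads. The Madoi share includes 9986 reads of copies with 0 reads in Maqu. It also includes 2 copies with 2020 and 2836 Madoi reads that had only 2 reads and 1 read in Maqu. The 2 shares therefore do not compare the same copies.

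Introns are cut from messenger RNA precursors by the spliceosome, which is built anew on each intron from small nuclear RNAs and their proteins. The U1 particle marks the start of the intron, the U2 particle the branch site, and the U4/U6.U5 tri-snRNP then joins to form the catalytic centre. A ring of Sm proteins holds most of these RNAs, and every cell that splices uses it, so it is found in all tissues of such a pool. RNA helicases open RNA duplexes at many steps between transcription and translation.

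The names fell into 14 of snRNP proteins with 34 copies, 2 of pre-mRNA-processing factors with 16 copies, 2 of RNA helicases with 11 copies and 3 of other RNA-binding proteins with 5 copies. The words splicing factor, heterogeneous nuclear ribonucleoprotein and cold-inducible matched 0 annotation names, so that the set is mostly one of snRNP proteins. Of the 66 copies, 42 had reads in both libraries and 24 had 0 reads in Maqu, while 0 had 0 reads in Madoi. The 24 are given apart, since they may not be lizard sequences. Ratios of a name below use the sum over its copies with reads in Maqu, on the log2 scale, as Madoi over Maqu after scaling of the libraries, with a 95% counting interval that covers counting error only. The call higher or lower asked of a name a difference of 2-fold or more, an interval without equal levels, and a sum of 10 reads or more over both libraries.

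All 19 names with reads in Maqu passed the limit of 10 reads. Of them 1 was called higher in Madoi and 0 lower, against 5.89% higher and 7.15% lower among 4702 annotated names treated the same way. Their median ratio was 0.21, with a range from -0.21 to 1.16, against a median of 0.00 over all 4702 names, and 17 of the 19 names, 89.5%, differed by less than 1.5-fold, as did 70.9% of all 4702. The share of the 19 called higher was near that over all names, and 0 lower among 19 is a small count, so that nothing particular to the members is read from these calls. The 1 called name, RNA-binding protein PNO1, rested on a single copy with 2 reads in Maqu. Where copies beyond a log2 ratio of 5 were left out as well, 0 of the 19 names were called in either direction, against 4.17% higher and 7.07% lower over all names. Of the 42 single copies with reads in Maqu, 2 were called higher, that of PNO1 and 1 of pre-mRNA-processing factor 4, and 0 lower, against 7.76% and 9.56% of annotated copies. In bulk RNA, fewer cells of a type and less RNA per cell cannot be told apart.

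**Figure D1:**
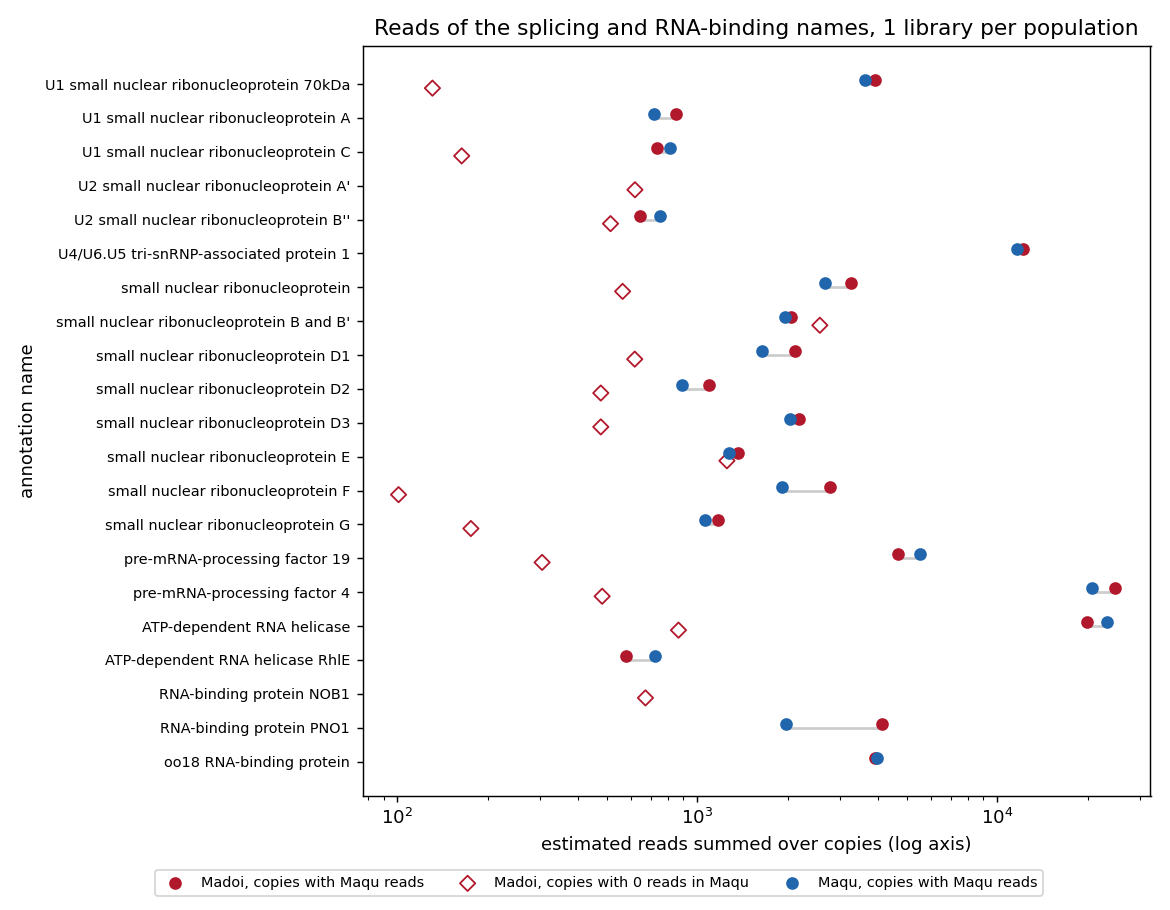
Estimated reads of each of the 21 names on a log axis, with 1 library per population. Filled points are sums over copies with reads in Maqu, Madoi in red and Maqu in blue, and open diamonds are Madoi reads of copies with 0 reads in Maqu; the paired filled points lie close together for 18 of 19 names, PNO1 being the exception.

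The Sm ring proteins were all measured, and each stood slightly above 0. The 7 names had a median ratio of 0.25, from 0.18 to 0.64, and 7 of 7 lay above 0, while 50.2% of all annotated names did. Library totals moved every name by -0.05 and size factors by 0.01, too little to change a sign among the 7. All 7 come from the same pair of libraries and are not separate checks. With the RPKM of the authors they also lay above 0. None reached 2-fold. Small nuclear ribonucleoprotein F had the highest ratio among them, with 2776 Madoi reads and 1921 Maqu reads, a ratio of 0.64 with an interval from 0.56 to 0.73. Small nuclear ribonucleoprotein B and B' had the lowest, with 2059 Madoi reads and 1955 Maqu reads, a ratio of 0.18 with an interval from 0.09 to 0.27.

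The other ring members lay between these. Small nuclear ribonucleoprotein D1 had 2124 Madoi reads and 1638 Maqu reads, a ratio of 0.48. Its 2 copies with reads in Maqu stood on different sides of 0: the copy of 655 bases had 1696 Madoi reads and 1099 Maqu reads, and the copy of 386 bases had 428 in Madoi and 539 in Maqu. Their ratios were 0.74 and -0.22, and the counting intervals, from 0.63 to 0.85 and from -0.41 to -0.04, did not meet. The 2 copies carry different protein accessions, and whether these stand for different proteins was not tested. Small nuclear ribonucleoprotein D2 had 1095 Madoi reads and 889 Maqu reads, a ratio of 0.41, and small nuclear ribonucleoprotein D3 had 2179 Madoi reads and 2046 Maqu reads, a ratio of 0.20. Small nuclear ribonucleoprotein E had 1371 Madoi reads and 1276 Maqu reads, a ratio of 0.21, and small nuclear ribonucleoprotein G had 1171 Madoi reads and 1065 Maqu reads, a ratio of 0.25. In these 4 names a single copy carried the value.

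Levels per length can be compared between genes in RPKM, reads scaled by transcript length and library size, as deposited. Of the ring proteins, F was the most abundant, at 92.8 RPKM in Madoi and 61.8 in Maqu, ahead of D1 at 63.7 in Madoi and 51.7 in Maqu, D3 at 60.8 in Madoi and 55.0 in Maqu and G at 50.4 in Madoi and 44.1 in Maqu. E stood at 35.8 RPKM in Madoi and 32.0 in Maqu, D2 at 26.3 in Madoi and 20.6 in Maqu, and B and B' at 20.3 in Madoi and 18.6 in Maqu. The value of D1 is a sum over 2 copies with different accessions, of 43.3 RPKM in Madoi and 27.0 in Maqu for the longer and 20.3 in Madoi and 24.7 in Maqu for the shorter, each below D3 and G in the same library. The place of D1 in the order therefore holds only for the sum. The 7 proteins enter the ring in equal numbers, whereas these RNA levels spread over several-fold.

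**Figure D2:**
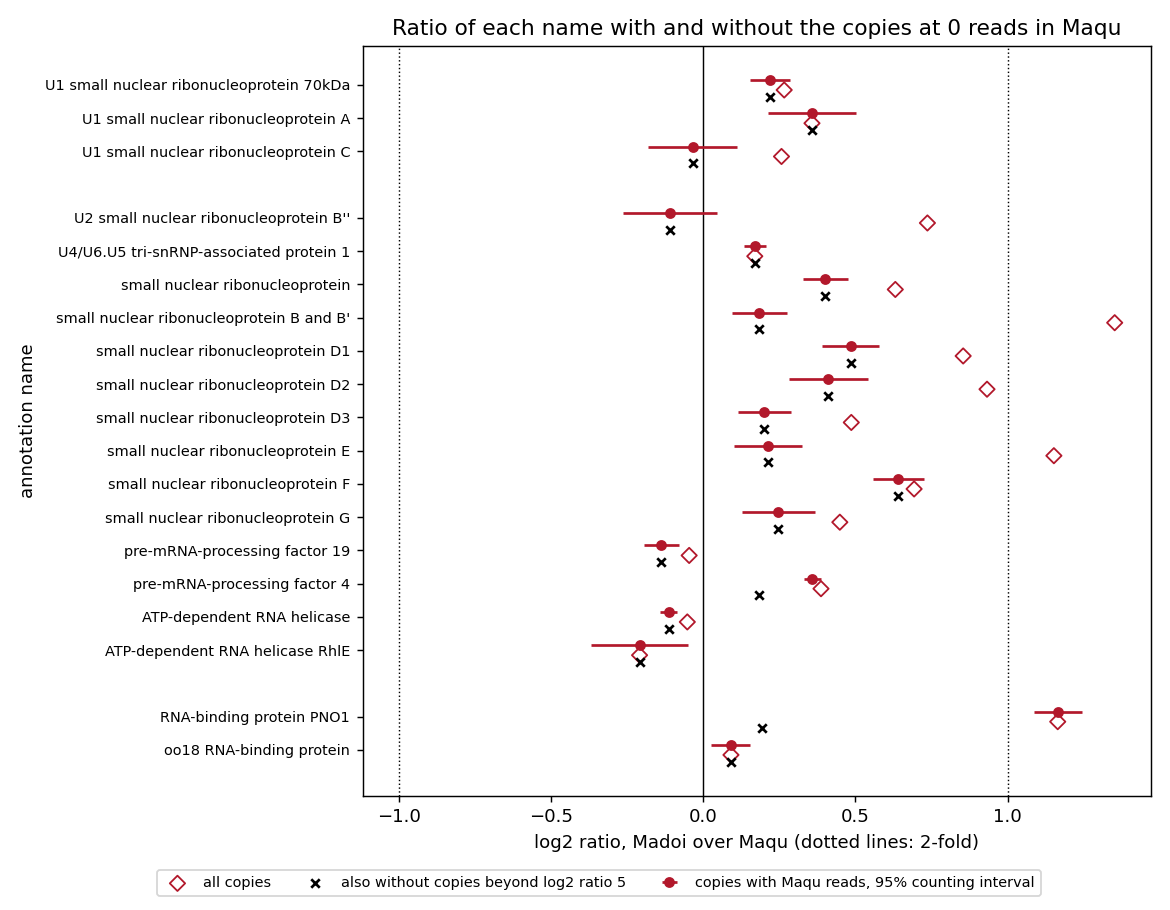
Log2 ratio of Madoi over Maqu for the 19 names with reads in Maqu. Filled points with 95% counting intervals use copies with reads in Maqu, open diamonds add the copies with 0 reads in Maqu, and crosses also leave out copies beyond a log2 ratio of 5; dotted lines mark 2-fold. The filled points run from -0.21 to 0.64, apart from PNO1 at 1.16.

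Proteins of single particles lay on both sides of 0. U1 small nuclear ribonucleoprotein 70kDa, which binds the U1 RNA, had 3916 Madoi reads and 3632 Maqu reads, a ratio of 0.22. U1 small nuclear ribonucleoprotein A, another protein bound to that RNA, had 850 Madoi reads and 716 Maqu reads, a ratio of 0.36 with an interval from 0.21 to 0.50, from its only copy. U1 small nuclear ribonucleoprotein C, which steadies the pairing of U1 with the intron start, had 732 Madoi reads and 809 Maqu reads, a ratio of -0.03 with an interval from -0.18 to 0.11. The C name sums 3 copies with different protein accessions, at -0.08, 0.02 and 1.24. The last of these, of 268 bases, had 16 Madoi reads and 7 Maqu reads, with an interval from -0.06 to 2.83. None of the 3 names of the U1 particle differed 2-fold, and for the sum of the C name the interval spans equal levels. Of all 4702 annotated names, 5.89% were called higher and 7.15% lower.

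Of the U2 particle, the names of A' and B'' were found, a pair of proteins that sit together on the U2 RNA. U2 small nuclear ribonucleoprotein B'' had 644 Madoi reads and 750 Maqu reads, a ratio of -0.11 with an interval from -0.26 to 0.04. U2 small nuclear ribonucleoprotein A' had 620 Madoi reads and 0 Maqu reads, in its only copy, and has no ratio here. The U4/U6.U5 tri-snRNP-associated protein 1, known in human cells for bringing the tri-snRNP to the spliceosome, had 12144 Madoi reads and 11653 Maqu reads, a ratio of 0.17. Its 3 copies stood at 0.29, 0.18 and -0.11. The last of these, of 1615 bases, carries the GO terms mitochondrion and ribosome in the deposited table, and the first, of 6701 bases, terms of the cytoplasmic mRNA processing body, so that the 2547-base copy is the one of the 3 with spliceosome terms. That copy had 3561 Madoi reads and 3401 Maqu reads.

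The name given only as small nuclear ribonucleoprotein covered 6 copies under 3 protein accessions. Each accession had 1 copy with reads in Maqu and 1 copy with 0. The 3 copies with reads in both libraries stood close together, at 0.47, 0.37 and 0.34, and together had 3260 Madoi reads and 2665 Maqu reads, a ratio of 0.40. The GO terms of the 899-base copy include binding of U6 small nuclear RNA, and those of the 1308-base copy include mRNA decay and the processing of ribosomal and transfer RNA. Over all 13 snRNP names with reads in Maqu the median was 0.22, with 11 above 0 and 2 below, and 0 called in either direction. Of all 4702 annotated names, with a median of 0.00, 50.2% lay above 0, 5.89% were called higher and 7.15% lower. With so few names, nothing particular to snRNP names is read from the 0 calls.

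The pre-mRNA-processing factors showed no common direction. Pre-mRNA-processing factor 19, a ubiquitin ligase of the complex that activates the spliceosome, had 4655 Madoi reads and 5525 Maqu reads, a ratio of -0.14 with an interval from -0.19 to -0.08. Pre-mRNA-processing factor 4 had 24641 Madoi reads and 20736 Maqu reads, a ratio of 0.36. This name was the widest of the set, with 12 copies under 11 protein accessions, and its sum mixes different proteins.

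Within pre-mRNA-processing factor 4 the copies with reads in both libraries lay on both sides of 0. The highest among those within a log2 ratio of 5, a copy of 7137 bases with zinc ion binding among its GO terms, had 11644 Madoi reads and 9037 Maqu reads, a ratio of 0.48. The lowest was the 2007-base copy whose GO terms name the U4/U6 snRNP, with 912 Madoi reads and 1510 Maqu reads, a ratio of -0.62 with an interval from -0.74 to -0.50. A 7768-base copy with protein kinase and spliceosome terms had 3874 Madoi reads and 3652 Maqu reads, a ratio of 0.20, and a 1968-base copy 3673 Madoi reads and 4637 Maqu reads, a ratio of -0.23. Copies whose GO terms name other processes were a 2539-base copy of the small-subunit processome at -0.17 and a 1520-base copy of the cortical actin cytoskeleton at -0.18. One more copy, of 3094 bases and with the nucleolus as its GO term, had 2836 Madoi reads and 1 Maqu read. Without it the name stood at 0.18.

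The RNA helicase names had ratios slightly below 0, and neither was called. Over all 4702 annotated names 5.89% were called higher and 7.15% lower, so nothing is read from 0 calls among 2 names. The name ATP-dependent RNA helicase had 19966 Madoi reads and 23308 Maqu reads, a ratio of -0.11 with an interval from -0.14 to -0.09. Nearly all of these reads lay in a 4712-base copy with 8 transcripts, 19764 in Madoi and 23158 in Maqu, at 65.8 RPKM in Madoi and 73.8 in Maqu. A 732-base copy under the same name, with 160 Madoi reads and 115 Maqu reads and a ratio of 0.58, carries GO terms of DNA repair and not of a helicase.

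ATP-dependent RNA helicase RhlE, a name known from bacteria, had 578 Madoi reads and 721 Maqu reads, a ratio of -0.21 with an interval from -0.37 to -0.05. Its 4 copies stood at -0.08, -0.22, -0.68 and -0.67, and the 260-base copy with the last value had only 8 Madoi reads and 14 Maqu reads. The GO terms of these copies do not name a helicase: the 717-base copy carries the heterogeneous nuclear ribonucleoprotein complex, the 1070-base copy the Cajal body and transcription elongation, and the 394-base copy methyltransferase activity. The 717-base copy, the one member with a term for heterogeneous nuclear ribonucleoproteins, had 278 Madoi reads and 317 Maqu reads.

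The remaining RNA-binding proteins act outside splicing. RNA-binding protein PNO1, a factor that assembles the small ribosomal subunit, had 4118 Madoi reads and 1983 Maqu reads, and was called higher in Madoi, 2.24-fold with a ratio of 1.16 and an interval from 1.09 to 1.24. Its 1133-base copy had 2098 Madoi reads and 1981 Maqu reads, a ratio of 0.19 with an interval from 0.10 to 0.28. Its 868-base copy had 2020 Madoi reads and 2 Maqu reads, a ratio of 9.76, so that the call is lost without this copy.

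RNA-binding protein NOB1, the nuclease that trims the precursor of small-subunit ribosomal RNA, had 672 Madoi reads and 0 Maqu reads in its only copy. The oo18 RNA-binding protein, known in Drosophila for controlling translation of messenger RNAs in the egg, had 3910 Madoi reads and 3961 Maqu reads, a ratio of 0.09. One of its copies stood at 0.25, with 2360 Madoi reads and 2136 Maqu reads, and the other at -0.13, with 1550 in Madoi and 1825 in Maqu.

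The copies with 0 reads in Maqu formed 36.4% of the members, 24 of 66, against 20.2% of all 14472 annotated copies. By name, 16 of the 21 names had at least 1 such copy, 76.2%, against 33.6% of 4819 annotated names. Among names with 2 or more copies the shares were 77.8% of 18 names and 51.3% of 2991. All 7 Sm ring names had exactly 1. Of 737 other assembled genes in the class RNA processing and modification of the KOG protein catalogue, 40.6% had 0 reads in Maqu, against 22.7% of all assembled genes with a KOG class. Those classes were looked up after the values of the members were known.

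Among these 24 copies, small nuclear ribonucleoprotein B and B' had the most reads, 2563 in Madoi and 0 in Maqu in a copy of 1164 bases. A count of 0 in Maqu allows up to 3 reads. Against that limit per library, with the Madoi count taken as exact, this copy was at least 922-fold higher in Madoi. Small nuclear ribonucleoprotein E followed with 1256 reads in Madoi, at least 452-fold higher, then NOB1, at least 242-fold, U2 small nuclear ribonucleoprotein A', at least 223-fold, and small nuclear ribonucleoprotein D1 with 619 reads, also at least 223-fold. U2 small nuclear ribonucleoprotein B'' had 514 reads in Madoi, at least 185-fold higher. The 1349-base copy of ATP-dependent RNA helicase had 506 reads, at least 182-fold higher, and the copies of small nuclear ribonucleoproteins D3 and D2 had 477 each, at least 172-fold higher. The 484-base copy named only small nuclear ribonucleoprotein had 269 reads, at least 96.8-fold higher. The other 14 copies had fewer reads, down to 32 in a helicase copy of 247 bases, at least 11.5-fold higher.

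The 24 copies were shorter and less abundant than the 42 others, with overlap in both. Their length ran from 247 to 1349 bases with a median of 497, against 260 to 7768 bases with a median of 1122 for the others. Their level in Madoi ran from 2.74 to 42.8 RPKM with a median of 8.14, against 0.640 to 92.8 RPKM with a median of 12.9 for the others. They held 9.77% of the members' Madoi reads, whereas such copies held 2.75% of the Madoi reads of all annotated copies.

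Of the 24, 22 stood beside a copy of the same name that had reads in Maqu. In 11 of these 14 names the summed RPKM of the copies with 0 reads in Maqu was below that of the other copies in Madoi. In 3 names it was above: small nuclear ribonucleoprotein B and B', at 34.9 against 20.3 RPKM, small nuclear ribonucleoprotein E, at 42.8 against 35.8, and U2 small nuclear ribonucleoprotein B'', at 11.3 against 9.22. The order of abundance in the Sm ring was not the same in the copies with 0 reads in Maqu, in which F was lowest, at 5.49 RPKM in Madoi, although its other copy was the highest.

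**Figure D3:**
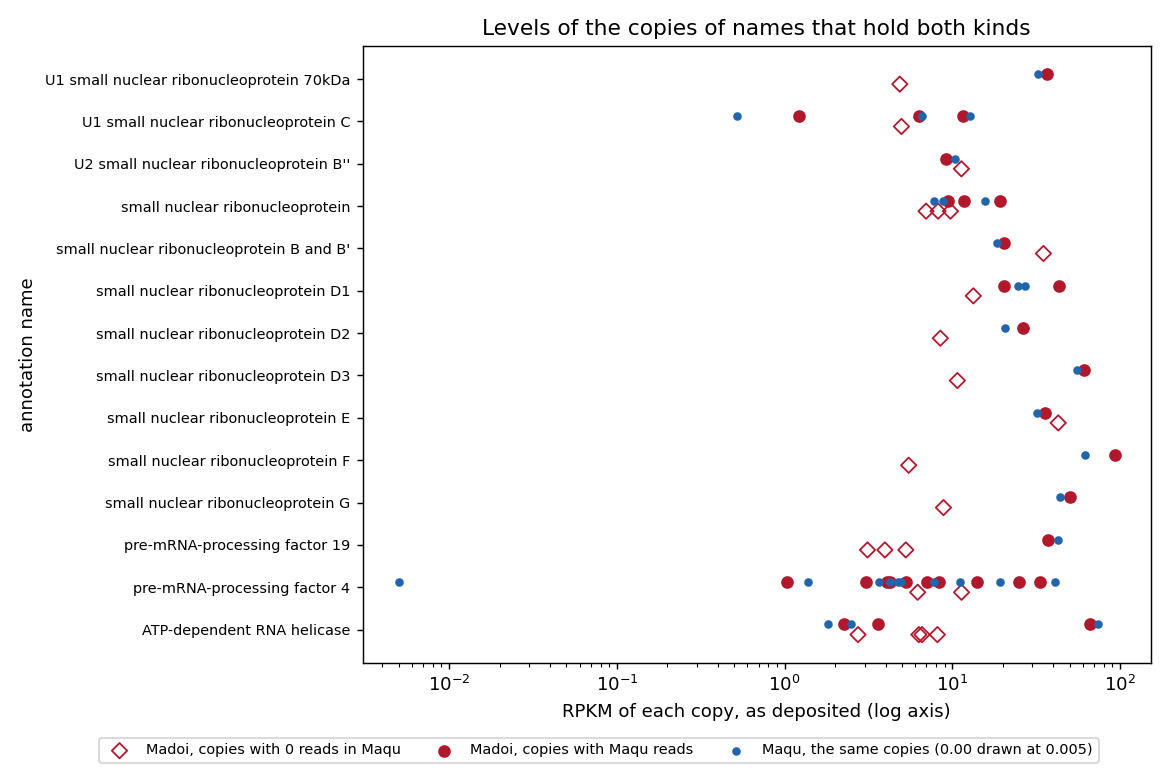
RPKM of every copy, on a log axis, for the 14 names that hold both kinds of copies, with 1 library per population. Open diamonds are Madoi levels of copies with 0 reads in Maqu, large red points are Madoi levels and small blue points Maqu levels of the other copies; the diamonds lie to the right of every other copy of their name for B and B', E and U2 B''.

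The deposited annotation of the 24 copies also differed from that of the others. The GO term precatalytic spliceosome stood on 6 of the 24 copies and on 0 of the 42 others, and oogenesis on 3 of 24 and 0 of 42. The copy of D3 with 0 reads in Maqu carries the terms pole plasm and lymph gland development, and a pair of helicase copies the term P granule. In the other direction, the term U7 snRNP stood on 0 of 24 copies and on 4 of 42. The literal term RNA splicing stood on 5 of 24 and on 7 of 42, 20.8% and 16.7%. Related terms differed more. The term nuclear mRNA splicing, via spliceosome, stood on 10 of 24 and on 5 of 42, 41.7% and 11.9%. Catalytic step 2 spliceosome stood on 9 of 24 and on 3 of 42, 37.5% and 7.14%. Under the name small nuclear ribonucleoprotein, the 484-base copy with 0 reads in Maqu carries the same terms as the 1871-base copy. The same holds for the copies of 421 and 899 bases and for those of 312 and 1308 bases. The terms were not counted over all annotated copies, so nothing particular to the members is read from them. Of the 24 copies, 6 carry a protein accession that another member copy with reads in Maqu also carries. An assembly component is shared by 3 of the helicase copies and another by the 2 copies of pre-mRNA-processing factor 4, so that these are not separate observations. The species these copies come from was not tested.

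Where these copies were summed with the others, 5 of 21 names were called higher in Madoi and 0 lower, against 11.6% higher and 6.33% lower over all 4819 names summed the same way. The 5 were B and B' at 1.35, E at 1.15, PNO1 at 1.16, and NOB1 and U2 A', whose only copies had 0 reads in Maqu. Of these, B and B' and E were not called from copies with reads in Maqu, at 0.18 and 0.21. U2 B'' stood at 0.74 as a sum of all copies and at -0.11 without those at 0.

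In the authors' deposited table, 23 of the 66 copies, 34.8%, are marked significant, all with the higher value in Madoi, against 15.5% of the annotated copies. Of these, 21 had 0 reads in Maqu and the others were the copies of PNO1 and pre-mRNA-processing factor 4 with 2 reads and 1 read. Every marked gene there has an unadjusted p of at most 0.05 and an absolute log2 fold change of at least 1. Most of the 23 marked copies do not have a false discovery rate under 0.05. With 1 library per population, these p-values cannot hold a spread between replicate libraries, so the marks are no replicate check. No member with more than 2 reads in Maqu is marked in the authors' deposited table.

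The RPKM values gave close ratios in copies with a single transcript and less close ones elsewhere. In 24 copies with a single transcript and at least 100 reads the log2 ratios from RPKM and from scaled reads differed by at most 0.064. The copy farthest from its ratio by reads was the 3923-base copy of oo18 RNA-binding protein, with 9 transcripts, at 18.6 RPKM in Madoi and 11.9 in Maqu, a log2 RPKM ratio of 0.65, although it had 1550 Madoi reads and 1825 Maqu reads. The effective length that these values imply was 1308 bases in Madoi and 2317 bases in Maqu, against 1791 bases in the deposited table. A direction for this copy therefore depends on which column is used. The 558-base copy of U1 small nuclear ribonucleoprotein C also had ratios of different sign, 0.02 by reads and -0.06 by RPKM. Summed by name, 6 of 19 ratios from RPKM lay outside the counting interval of the ratio from reads. Pre-mRNA-processing factor 4 stood at 0.09 by RPKM and 0.36 by reads, D1 at 0.30 by RPKM and 0.48 by reads, and oo18 RNA-binding protein at 0.48 by RPKM and 0.09 by reads. The others of the 6 were PNO1 at 1.33 by RPKM, the name small nuclear ribonucleoprotein at 0.32 and the U4/U6.U5 tri-snRNP-associated protein 1 at 0.10. Part of each difference is the scaling of the libraries, as library totals moved every name by -0.05. With library totals the U4/U6.U5 tri-snRNP-associated protein 1 stood at 0.12 by reads, outside its interval from 0.13 to 0.21.

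**Figure D4:**
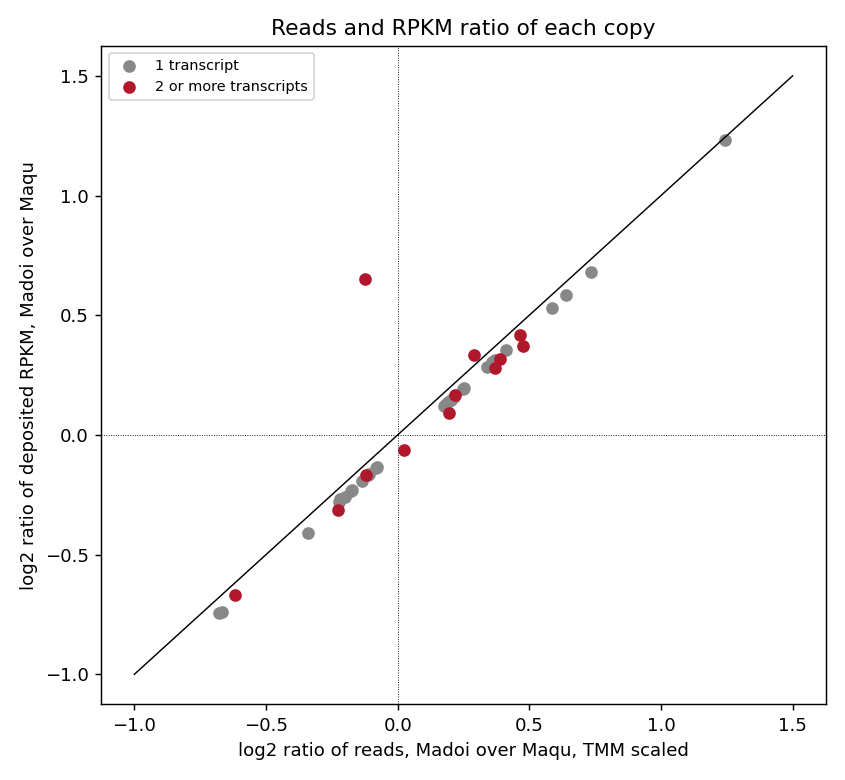
Log2 ratio of deposited RPKM against log2 ratio of scaled reads, Madoi over Maqu, for the 40 copies with reads in Maqu and a log2 ratio within 5. The line marks equal values, grey points are copies with 1 transcript and red points copies with 2 or more; the point far above the line is a copy of oo18 RNA-binding protein at 0.65 by RPKM and -0.13 by reads.

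Other genes of RNA processing were looked up from word lists. The splicing kinases, which phosphorylate arginine/serine-rich proteins, comprised 2 names, and 0 were called. CDC-like kinase had 19978 Madoi reads and 12911 Maqu reads, a ratio of 0.74, and SFRS protein kinase 5126 Madoi reads and 5265 Maqu reads, a ratio of 0.07. The kinase named for the U2AF homology motif had 1494 Madoi reads and 2633 Maqu reads, a ratio of -0.71. Poly(A) polymerase, which adds the tail to messenger RNA, had 10617 Madoi reads and 8744 Maqu reads, a ratio of 0.39. Of 4 names of RNA decay, 3 had copies with reads in Maqu and 0 were called, from CCR4-NOT transcription complex subunit 4 at 0.21 to exosome complex component RRP4 at -0.28, and the single copy of exosome complex component RRP45 had 166 Madoi reads and 0 Maqu reads. For the exon junction and export list 0 names were found. Over all 4702 annotated names 5.89% were called higher and 7.15% lower. With so few names in these lists, nothing particular to them is read from the 0 calls.

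Splicing genes of the assembly outside the 66 copies were found by their GO terms. Apart from the members, 424 assembled genes had a GO term with RNA splicing or the spliceosome, and 42.0% of them had 0 reads in Maqu, against 18.8% of all assembled genes with a GO term. Of those with reads in Maqu, 246 had a median ratio of 0.11, with 7.72% called higher in Madoi and 2.85% lower. Of 15577 assembled genes with a GO term, with a median of -0.06, 7.30% were called higher and 9.29% lower. Without copies beyond a log2 ratio of 5, 6 of 233 were called higher, 2.58%, and 7 lower, against 5.19% higher and 9.30% lower of 15194 assembled genes with a GO term. By KOG class, 438 other assembled genes of RNA processing and modification had a median ratio of 0.01, with 4.79% called higher and 3.88% lower. Of 13547 assembled genes with a KOG class, with a median of -0.05, 7.20% were called higher and 8.32% lower. Without copies beyond a log2 ratio of 5, 6 of 423 in the class were called higher, 1.42%, and 17 lower, 4.02%. The shares were then 4.76% higher and 8.40% lower of 13178 assembled genes with a KOG class.

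The tissues in the pool were not equally represented by their markers. From copies with reads in Maqu, 6 liver names had a median ratio of -0.80, with 2 called lower and summed values of 81328 Madoi reads and 164773 Maqu reads. The median was -1.12 for 3 lung names, 2 of them called lower, with 23090 Madoi reads and 51166 Maqu reads in sum. The heart, leukocyte and skeletal muscle lists held names on both sides of 0. The 4 heart names had a median of 0.52 and ran from -0.42 for phospholamban to 1.23 for T-box protein 5, with 2 called higher, while their sums were 7205 Madoi reads and 7573 Maqu reads. The 7 leukocyte names had a median of 0.39 and ran from -0.61 for the macrophage colony-stimulating factor 1 receptor to 1.55 for CD79A antigen, with 3 called higher and sums of 21879 Madoi reads and 18180 Maqu reads. CD3Z antigen alone gave 17403 of these Madoi reads and 14359 of these Maqu reads, and its own ratio is the median. The leukocyte sums therefore rest mostly on 1 name. The other CD3 names were far lower, CD3E antigen with 8 Madoi reads and 8 Maqu reads and CD3G antigen with 73 and 35. Whether the CD3Z name stands for leukocytes here was not tested. The 3 skeletal muscle names had a median of 0.16, from -0.23 for ryanodine receptor 1 to 0.41 for skeletal troponin C, with 0 called and sums of 236154 Madoi reads and 229657 Maqu reads. All 6 names of pancreas enzymes, a tissue the labels do not list, were called lower, with a summed 432 Madoi reads and 25198 Maqu reads. The part of tissue makeup in the small differences of the splicing names was not tested.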

How the data were processed

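Liver, lung, heart and muscle of adults gave total RNA (Promega SV system) for standard Illumina libraries, per the labels' protocols. Trinity and BLAST were used, per the series' design text. The sources used here give no counting tool, no versions and no test for the deposited p-values, and genome positions and sequences of the copies were not used here.

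The unit of the deposited reads is the expected count, estimated by the authors for each assembled gene. RPKM, log2 fold changes and p-values with false discovery rates are quoted as deposited. The table held 0 columns of other samples.

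Reads were rounded to whole numbers and scaled by TMM over all assembled genes (edgeR 4.0.16, R 4.3.3). Ratios used a pseudocount of 0.5 reads. Intervals are exact (Clopper-Pearson, 95%), and the limit for a count of 0 is 3 reads per library, 0.0444 CPM in Maqu. Reads are not independent molecules, and no test was made. The calling step was run on simulated counts with known changes, which hold no spread between animals. Members, lists and settings were chosen with earlier results of these data known. Names were chosen in each role group by the 3 highest and lowest ratios and the 3 highest levels, with every called name and the 10 most read copies at 0 in Maqu.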

Additional observations from a re-analysis of the deposited data

How the results depend on the processing

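With all copies summed, 5 names were called higher in Madoi and the median ratio was 0.49, against 1 name and 0.21 from copies with reads in Maqu. Over all annotated names, 11.6% and 5.89% were called higher in these settings, with medians of 0.12 and 0.00. The count of higher member names was 0 without copies beyond a log2 ratio of 5, against 4.17% of all names. It was 0 with the most read copy of each name, against 5.64%, and 0 with a 4-fold threshold, against 1.38%. Scaling by library totals or by DESeq2 size factors (DESeq2 1.42.0), a pseudocount of 5 reads, no filter, a filter of 50 reads and no counting interval left 1 name higher. With these, 5.47% to 6.02% of all names were called higher. The count of lower member names was 0 in every setting named so far. Over all names 1.74% were lower with a 4-fold threshold and 6.33% to 7.89% in the other settings. Median ratios in the settings other than all copies lay between 0.16 and 0.22. Of the 19 ratios of names, 2 changed sign with all copies summed, U1 C and U2 B'', and 0 with the other settings, RPKM of the authors included, a setting added after the data were seen. More ratios left their counting interval, 12 with all copies, 6 with RPKM and 5 with the most read copy. With library totals 3 did, without copies beyond a log2 ratio of 5 2 did, and with size factors or a pseudocount of 5 reads 0 did. Copies with at most 1 read in Maqu numbered 25, and those with a log2 ratio of at least 5 numbered 26, against 24 at 0. No paired analysis was possible because each population has 1 library. The lowest member copy had 22 reads in both libraries together, so that depth limited few copies, and the lack of replicates limits every ratio.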

Other observations

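Further ribonucleoprotein names were chosen after their values were seen. The 4 H/ACA ribonucleoprotein complex subunits, proteins of particles that modify ribosomal RNA, each had 1 copy with reads in Maqu and 1 copy with 0. Of all annotated names with 2 or more copies, 51.3% had a copy with 0 reads in Maqu. The copies with reads in both libraries stood at -0.07, -0.11, -0.16 and -0.13 for subunits 1 to 4. None was called, against 5.89% higher and 7.15% lower of all annotated names. As sums over all copies the 4 subunits stood at 1.35, 0.93, 0.51 and 1.80. For subunit 4 the copy with 0 reads in Maqu had 1906 Madoi reads, and the other copy had 675 Madoi reads and 797 Maqu reads.

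Single names linked to splicing or decay, also chosen after their values were seen, give no account of a pathway. SNW domain-containing protein 1 stood at 0.18, with 9910 Madoi reads and 9468 Maqu reads, and 3 of its 6 copies had 0 reads in Maqu. Peptidyl-prolyl isomerase H (cyclophilin H) stood at 0.02, with 1 of 2 copies at 0 reads in Maqu. Peptidyl-prolyl isomerase E (cyclophilin E) stood at 0.12, and at -0.01 without a copy beyond a log2 ratio of 5, with 1 of 4 copies at 0 reads in Maqu. Nonsense-mediated mRNA decay protein 3, listed here only for the words of its name, was called higher in Madoi at 1.21, with 2726 Madoi reads and 1273 Maqu reads. It stood at 0.19 without a copy beyond a log2 ratio of 5, and a part in decay was not tested.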
